A study of Mus musculus with 8 samples.

Results

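The FGF and HGF paracrine axis was followed in mouse colon fibroblasts through 9 genes. They were chosen by name, with earlier results of these data known. The ligand genes were Hgf, Fgf7, Fgf10, Fgf2 and Fgf18, and the receptor genes were Met, Fgfr1, Fgfr2 and Fgfr3. Each symbol mapped to 1 of the 55573 Ensembl identifiers in the count tables. Monolayer cultures of fibroblasts of the C57BL6/J strain, grown on plastic in Advanced DMEM F12 with FBS, had all received medium conditioned by APTKA, an abbreviation left unexplained in the labels. The irradiated group (4 libraries) was given 3 fractions of 2 Gy and collected 72 h after the first fraction, and the non-irradiated group (4 libraries) received the same medium without irradiation. Replicates carry the numerals I to IV of the sample titles. The submitters describe them as independent, but no label ties them to separate animals or cultures, and the p-values then cover only the spread among these samples, which may be technical. Nothing without conditioned medium was analysed here, so each value below belongs to fibroblasts already exposed to it.

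HGF and most FGFs are proteins that mesenchymal cells release and neighbouring cells read. HGF is secreted as an inactive chain, is cut by serine proteases and then activates the receptor tyrosine kinase MET, which in the gut wall is best known from epithelium. FGF7 and FGF10 act mainly on a splice form of FGFR2 that is typical of epithelium, whereas FGF2 and FGF18 prefer the splice forms that mesenchymal cells carry. FGFs need heparan sulfate chains to bind their receptors, which then signal through docking proteins, RAS and ERK.

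A pair of promoters is shown because their genes, Hgf and Fgfr2, were the axis genes called between the groups. Each is the stretch of 250 bases before a transcription start given by RefSeq on GRCm38.p6, the assembly called mm10, read 5′ to 3′ on the strand of the gene; RefSeq windows were found for 8 of the 9 axis genes, all but Fgfr1. Capitals mark the forkhead core GTAAACA.
Hgf, chr5:16553245-16553494, plus strand: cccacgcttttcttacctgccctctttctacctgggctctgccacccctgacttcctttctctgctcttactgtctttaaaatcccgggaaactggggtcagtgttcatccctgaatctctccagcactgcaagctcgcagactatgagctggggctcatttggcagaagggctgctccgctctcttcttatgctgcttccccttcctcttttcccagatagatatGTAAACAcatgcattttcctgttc
Fgfr2, chr7:130266809-130267058, minus strand: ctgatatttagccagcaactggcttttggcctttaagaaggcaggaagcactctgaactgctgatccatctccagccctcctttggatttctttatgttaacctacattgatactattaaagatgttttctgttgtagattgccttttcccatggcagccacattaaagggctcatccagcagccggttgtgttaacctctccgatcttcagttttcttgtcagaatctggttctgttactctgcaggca
The Hgf window ends at a start that GENCODE shares, at base 16553495; RefSeq gives a further Hgf start at base 16553901, within the gene. The Fgfr2 start used here, base 130266808, lies 545 bases from the nearest GENCODE start, so it stands for 1 of several annotated starts of that gene. Motifs were searched on both strands: the p53 half-site consensus, the AP-1 motif TGANTCA, the C/EBP motif TTGCNNAA, the GC box GGGCGG and the forkhead core GTAAACA, the last of which was added after the Hgf sequence had been seen. Of the 32851 RefSeq windows of this length, 7.13% held the p53 half-site, 6.75% the AP-1 motif, 9.56% the C/EBP motif, 32.7% the GC box and 3.17% the forkhead core. The Hgf window held 1 forkhead core, at bases -24 to -18 from the start, and none of the other motifs. The Fgfr2 window held none of the 5. G and C made up 50.8% of the Hgf window and 44.0% of the Fgfr2 window, whereas the windows of Met and Fgf18 reached 74.0% and 77.2%. The Fgf10 window also held 1 forkhead core, at bases -11 to -5. These matches describe letters and were not tested as binding sites.

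Mitochondrial rRNA, a proliferation marker and the sum of fibroblast markers differed between libraries or groups. Total counts ran from 28731227 to 37157216 per library. The 12S and 16S mitochondrial rRNA together stood at 15271 and 15425 CPM in irradiated I and II, at 4361 and 5906 CPM in irradiated III and IV and at 4203 to 5874 CPM in the non-irradiated libraries (CPM, counts scaled to library size with TMM factors). For axis and list genes, values without irradiated I and II are given below wherever they end a call. They are not given for the cell type markers or for the genes named later for their like profiles. The part of this difference in the results was not tested further. Mki67, a marker of dividing cells, stood at 56.4 to 61.8 CPM in irradiated and 88.2 to 118 CPM in non-irradiated libraries. There was no overlap, a separation downward that 8.07% of tested genes showed. Of 12 fibroblast markers, 9 reached 100 CPM in some library. Their sum was 14800 to 16100 CPM in irradiated and 16200 to 19100 CPM in non-irradiated libraries. The groups did not overlap, though only narrowly. Most of the sum came from the collagen genes Col1a1, Col1a2 and Col3a1. Of these 12 markers, 0 were called higher and 2 lower by the edgeR test described below. Over all tested genes 2.59% were called higher and 4.15% lower. The 2 lower markers were Col1a2 (log2 fold change -0.24, adjusted p = 0.0101) and the intermediate filament gene Vim (-0.14, adjusted p = 0.0462). Among the uncalled markers, Dcn (0.06), Lum (0.10) and Pdpn (0.08) had positive log2 fold changes and the rest negative ones. All 10 epithelial markers, Epcam and Cdh1 among them, stayed under 1 CPM in every library, and their sum was 1.10 to 1.61 CPM in irradiated and 0.975 to 2.32 CPM in non-irradiated libraries. The endothelial list summed to 4.57 to 5.40 CPM in irradiated and 4.04 to 5.02 CPM in non-irradiated libraries, with Cldn5 at 0 counts. The immune list summed to 4.51 to 5.50 CPM and 3.88 to 5.34 CPM in the same groups. Smooth muscle and pericyte markers summed to 68.8 to 86.6 CPM in irradiated and 72.7 to 82.6 CPM in non-irradiated libraries, mostly from Cnn1, which cultured fibroblasts also express. Mesothelial markers summed to at most 1.12 CPM and glial and neuronal markers to at most 5.31 CPM. The receptor transcripts below come from these same libraries.

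Per length, Fgf7 and Hgf were the most abundant genes of the axis. Levels were compared between genes as RPKM, that is CPM per 1000 bases of exon. Fgf7 stood at 80.9 ± 2.37 RPKM in irradiated and 75.0 ± 4.33 RPKM in non-irradiated libraries (SD, n = 4 each). Hgf followed with 40.1 ± 2.04 RPKM in irradiated and 34.0 ± 2.05 RPKM in non-irradiated libraries. The receptor Fgfr1 came next with 30.9 ± 0.537 and 30.6 ± 1.91 RPKM in the same groups. Below it the order was Fgfr2, Fgf10, Met and Fgf2, with means from 18.2 down to 8.20 RPKM in irradiated and from 16.0 down to 7.77 RPKM in non-irradiated libraries. Fgf18 and Fgfr3 were low, at 0.891 ± 0.200 and 0.466 ± 0.0379 RPKM in irradiated and 0.905 ± 0.114 and 0.518 ± 0.0464 RPKM in non-irradiated libraries.

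Over all 8 libraries the ranges of neighbours in this order did not overlap, except those of Met (7.56 to 9.65 RPKM) and Fgf2 (6.98 to 8.81 RPKM), which did not differ beyond their spread. The order was the same with the longest transcript as the length. The FGF ligand transcripts of these fibroblasts were thus led by Fgf7, with Fgf10 and Fgf2 next. Of the 18 FGF ligand genes outside the axis list the highest was Fgf11, whose protein stays inside the cell, at 0.678 RPKM in irradiated and 0.587 RPKM in non-irradiated libraries. Fgf3, Fgf4 and Fgf16 had no count in any library, where a count of 0 is compatible with up to 3 counts per library, or 0.0807 to 0.104 CPM, counting error only. Among receptors, Fgfr4 had 3 counts over all 8 libraries.

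**Figure D1:**
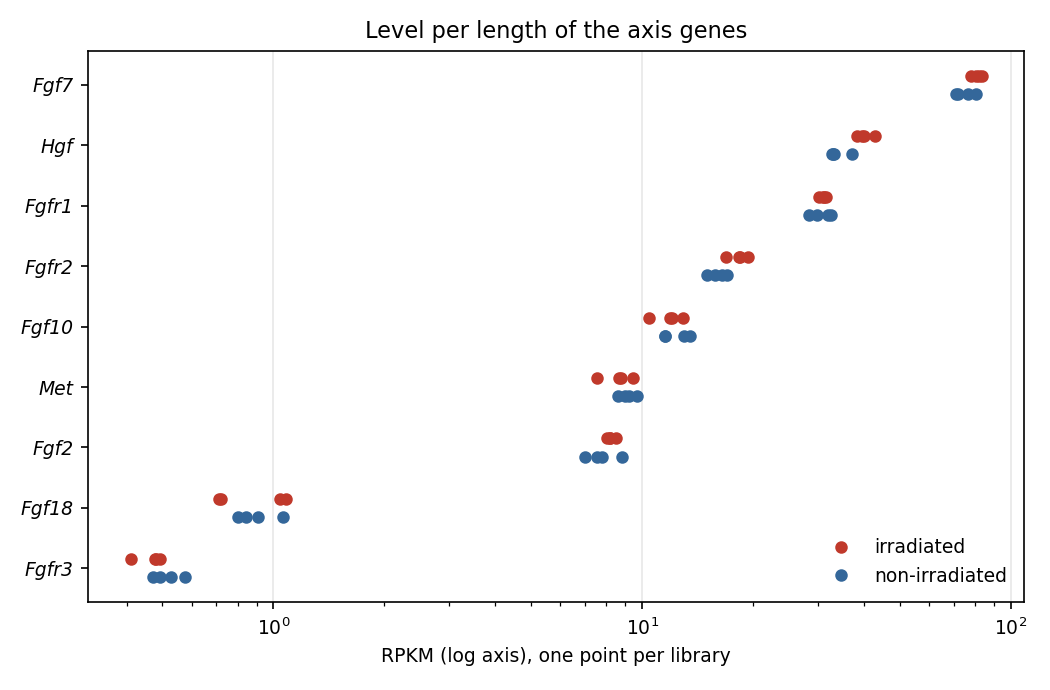
Level of each axis gene as RPKM on a log axis, with 1 point per library, irradiated above non-irradiated. Fgf7 and Hgf lie highest, Fgf18 and Fgfr3 lie near or under 1 RPKM, and only the ranges of Met and Fgf2 overlap as neighbours.

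Hgf and Fgfr2 were higher in irradiated fibroblasts, by small factors, and no axis gene was called lower. The test was edgeR's quasi-likelihood test over 15259 genes with Benjamini-Hochberg adjustment, with calls made below an adjusted p of 0.05. All 9 axis genes passed the low-count filter. Of these, 2 were called higher, where 2.59% of all tested genes were, and 0 lower, where 4.15% were. In either direction 6.74% of tested genes were called. Because the axis genes were chosen with earlier results of these data known, these shares do not test the axis as a set. At an unadjusted p under 0.05, 3 axis genes were higher and 0 lower, and DESeq2 and limma-voom each called 2 higher and 0 lower. The share of all tested genes at that unadjusted threshold is not given here. The unadjusted counts of the axis genes and of the lists below therefore cannot be set against it. The median log2 fold change of the 9 genes was 0.02, beside 0.0009 over all tested genes. The lower Mki67 level and the lower sum of fibroblast markers in the irradiated libraries, given above, moved with these differences. Their part in them was not tested. In bulk RNA, a change in the number of cells that express a gene and a change in RNA per cell cannot be told apart.

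**Figure D2:**
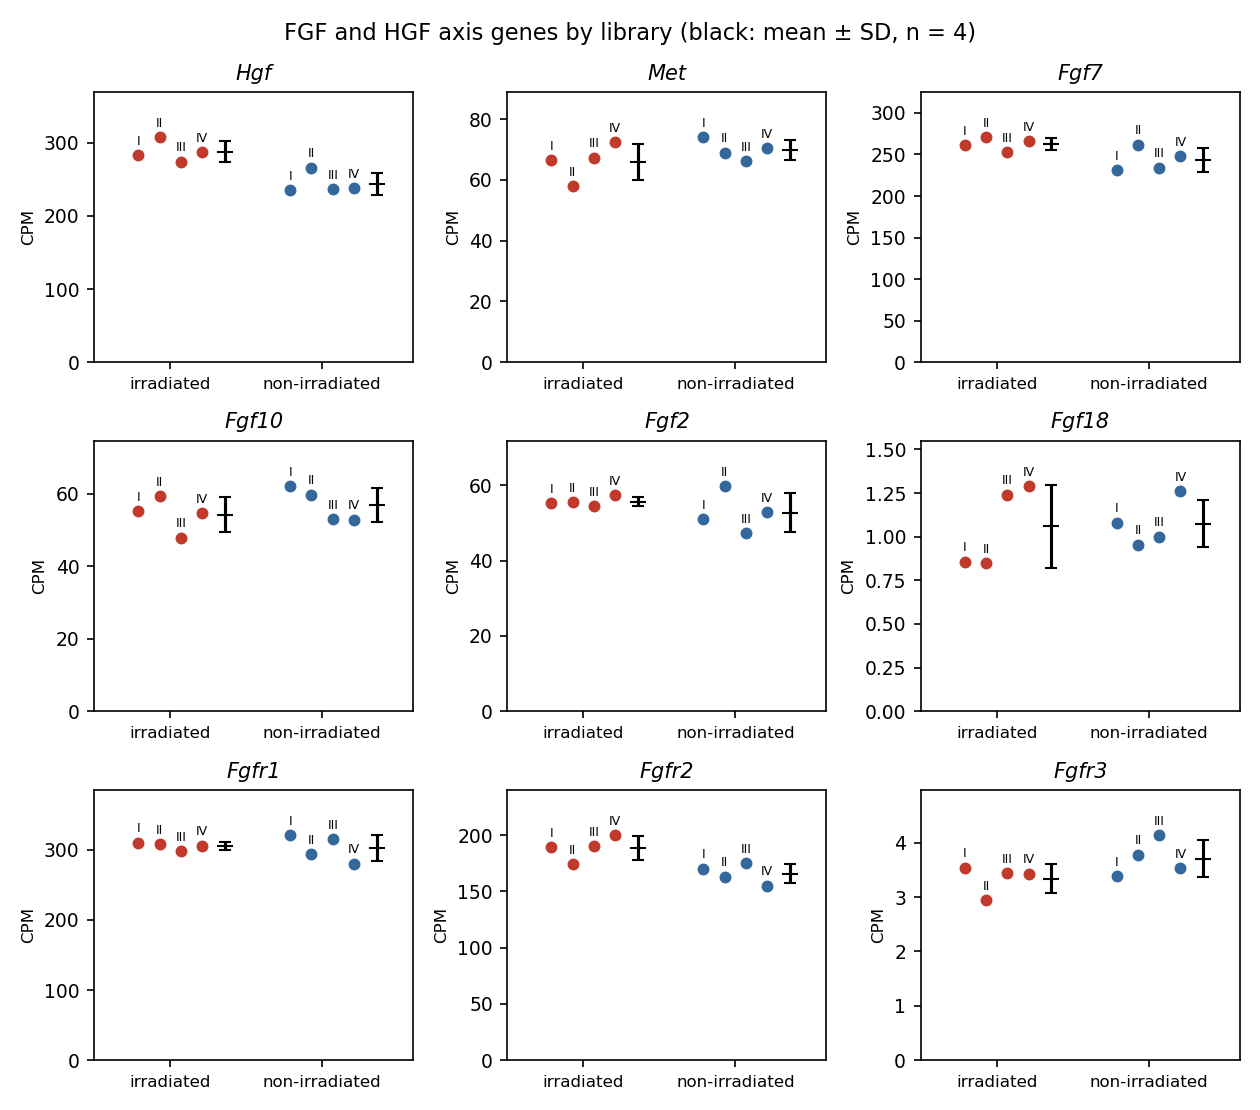
CPM of each axis gene in each library, with irradiated libraries left of non-irradiated ones and the mean ± SD of each group in black (n = 4). Hgf is the gene whose groups do not overlap; its lowest irradiated library has 274 CPM and its highest non-irradiated library 266 CPM.

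Hgf, the gene of hepatocyte growth factor (ENSMUSG00000028864, chromosome 5, 16553495 to 16620152, protein-coding), had 283, 308, 274 and 287 CPM in irradiated I to IV. It had 235, 266, 237 and 238 CPM in non-irradiated I to IV. Every irradiated library lay above every non-irradiated one, a separation upward that 6.13% of tested genes showed, and non-irradiated II stood apart from its group towards the irradiated values. The means were 288 ± 14.6 CPM in irradiated and 244 ± 14.7 CPM in non-irradiated libraries (SD, n = 4 each). Hgf thus rose 1.18-fold (95% interval 1.10 to 1.27; log2 fold change 0.24, SE 0.05, adjusted p = 0.00823). Whichever single library was left out, Hgf was called, with log2 fold changes from 0.20 to 0.29 and adjusted p from 0.00123 to 0.0309. Omitting irradiated I and II together ended the call (log2 fold change 0.20, adjusted p = 0.0906), as did omitting non-irradiated I and III together (0.19, adjusted p = 0.0570). Hgf shares 484 exonic bases with Gm43489, an unconfirmed transcript on the same strand that had 1533 counts over all libraries against 70486 for Hgf.

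Met, the gene of the HGF receptor (ENSMUSG00000009376, chromosome 6, 17463800 to 17573980), was not called. It had 66.5, 58.0, 67.3 and 72.3 CPM in irradiated I to IV and 74.1, 68.9, 66.1 and 70.5 CPM in non-irradiated I to IV. The groups overlapped, and irradiated II, the library with the most Hgf, had the least Met. The means were 66.0 ± 5.92 CPM in irradiated and 69.9 ± 3.33 CPM in non-irradiated libraries (SD, n = 4 each; log2 fold change -0.08, 95% interval -0.21 to 0.05, adjusted p = 0.481). Per length, Hgf exceeded Met 4.56, 5.68, 4.34 and 4.24 times in irradiated I to IV and 3.39, 4.13, 3.83 and 3.61 times in non-irradiated I to IV. This ratio, which does not depend on library scaling, did not overlap between the groups. It averaged 4.70 ± 0.662 in irradiated and 3.74 ± 0.315 in non-irradiated libraries and was not tested. The ratio reuses the Hgf values above and is no separate evidence, and the share of gene pairs that separate was not computed. Its size depends on the length used. Over all libraries Hgf and Met averaged 37.0 and 8.85 RPKM with all exons as the length. With the longest transcript they averaged 76.7 and 9.98 RPKM.

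**Figure D3:**
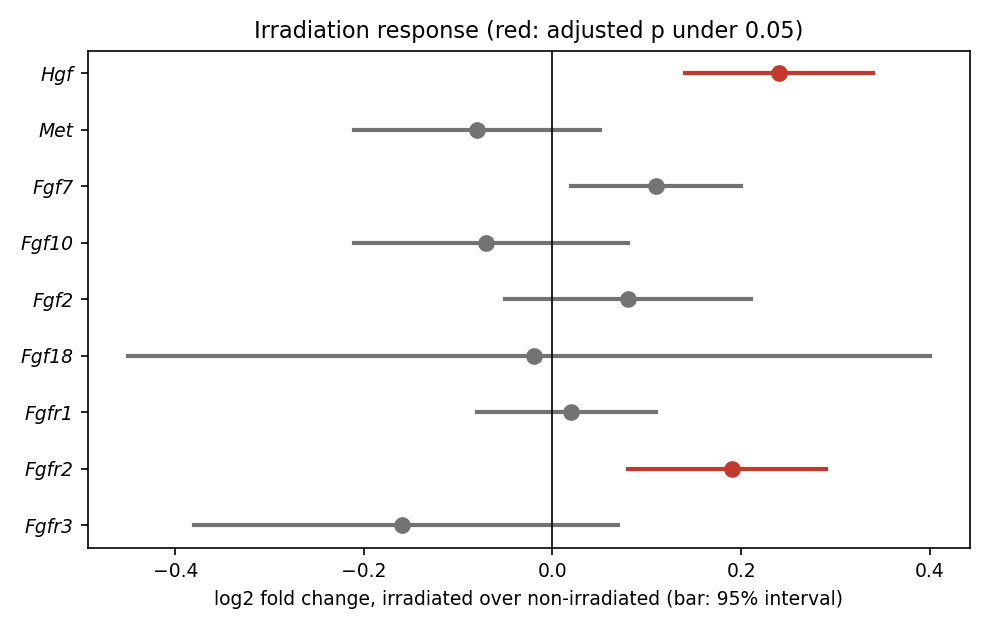
Log2 fold change of each axis gene, irradiated over non-irradiated, with its 95% interval from the edgeR fit; red marks an adjusted p under 0.05. Hgf (0.24) and Fgfr2 (0.19) are called, and the interval of Fgf18 (-0.45 to 0.40) is the widest of the 9.

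Fgf7, keratinocyte growth factor (ENSMUSG00000027208, chromosome 2, 126034658 to 126091185), was not called. It had 261, 271, 253 and 266 CPM in irradiated I to IV, against 231, 262, 234 and 248 CPM in non-irradiated I to IV. The groups overlapped through non-irradiated II, which reached 262 CPM. The means were 263 ± 7.71 CPM in irradiated and 243 ± 14.1 CPM in non-irradiated libraries (SD, n = 4 each; log2 fold change 0.11, 95% interval 0.02 to 0.20, adjusted p = 0.155). It passed without non-irradiated II (log2 fold change 0.15, adjusted p = 0.0460), and the adjusted p ran up to 0.326 when another library was left out.

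Fgf10, a close relative of Fgf7 with the same main receptor (ENSMUSG00000021732, chromosome 13, 118669791 to 118792115), had 55.3, 59.4, 47.9 and 54.7 CPM in irradiated I to IV. In non-irradiated I to IV it had 62.2, 59.8, 53.0 and 52.9 CPM. The groups overlapped widely, and irradiated III was the lowest of the 8 libraries. Fgf10 shares 123 exonic bases with the antisense gene Gm16263, which had 141 counts over all libraries against 14664 for Fgf10. The difference did not pass the test (log2 fold change -0.07, 95% interval -0.21 to 0.08, adjusted p = 0.623). Per length, Fgf7 exceeded Fgf10 6.88 ± 0.432 times in irradiated and 6.09 ± 0.587 times in non-irradiated libraries (SD, n = 4 each), and these ratios overlapped.

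Fgf2, basic FGF (ENSMUSG00000037225, chromosome 3, 37348346 to 37410108), had 55.3, 55.5, 54.4 and 57.4 CPM in irradiated I to IV, against 51.0, 59.8, 47.3 and 52.8 CPM in non-irradiated I to IV. The irradiated libraries sat within the range of the non-irradiated ones, and non-irradiated II was the highest of all 8. The log2 fold change was 0.08 (95% interval -0.05 to 0.21, adjusted p = 0.489). Fgf2 shares 640 exonic bases with Nudt6 on the opposite strand, which had 239 counts over all libraries against 14316 for Fgf2.

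Fgf18, a ligand known from skeletal and lung mesenchyme (ENSMUSG00000057967, chromosome 11, 33117430 to 33147400), was the scarcest ligand of the axis. Its counts were 31, 28, 45 and 39 in irradiated I to IV and 31, 30, 37 and 40 in non-irradiated I to IV. The groups averaged 1.06 ± 0.237 CPM in irradiated and 1.07 ± 0.135 CPM in non-irradiated libraries (SD, n = 4 each), and irradiated I and II were the lowest of the 8. At this depth the 95% interval of the fold spans 0.732 to 1.32 (adjusted p = 0.962), so a change within that span is not excluded.

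Fgfr2, the receptor gene for FGF7 and FGF10 (ENSMUSG00000030849, chromosome 7, 130162451 to 133123350), had 189, 174, 190 and 200 CPM in irradiated I to IV. It had 170, 163, 175 and 155 CPM in non-irradiated I to IV. The groups touched, since irradiated II lay just below non-irradiated III, while the other irradiated libraries lay above every non-irradiated one. The means were 188 ± 10.9 CPM in irradiated and 165 ± 8.44 CPM in non-irradiated libraries (SD, n = 4 each), a 1.14-fold rise (95% interval 1.06 to 1.22; adjusted p = 0.0352; log2 fold change 0.19, SE 0.05). Leaving out 1 library often ended it: it was lost without irradiated I (adjusted p = 0.0814), III (0.0869) or IV (0.115) and without non-irradiated I (0.0577), II (0.0638) or IV (0.0978). Omitting irradiated I and II together kept it, with a log2 fold change of 0.24. The annotated span of Fgfr2 is long because 1 transcript reaches far upstream, where 314 exonic bases are shared with Ctbp2; Ctbp2 itself had 88.4 ± 5.26 CPM in irradiated and 92.9 ± 1.99 CPM in non-irradiated libraries (log2 fold change -0.07, adjusted p = 0.413). Counts per gene do not separate the splice forms of Fgfr2, so the form that reads FGF7 and FGF10 was not measured on its own.

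Fgfr1, the main FGF receptor of mesenchymal cells (ENSMUSG00000031565, chromosome 8, 25513654 to 25575718), had 310, 308, 298 and 306 CPM in irradiated I to IV, against 321, 294, 315 and 280 CPM in non-irradiated I to IV. The irradiated libraries were close together within the wider range of the non-irradiated ones. It shares 164 exonic bases with the antisense gene Gm16159, which had 142 counts over all libraries. The log2 fold change of Fgfr1 was 0.02 (95% interval -0.08 to 0.11, adjusted p = 0.882). Per length, Fgfr2 stood at 0.582, 0.540, 0.609 and 0.627 times Fgfr1 in irradiated I to IV and at 0.506, 0.529, 0.531 and 0.530 times Fgfr1 in non-irradiated I to IV. That ratio did not overlap between the groups, narrowly (0.540 in irradiated II, 0.531 in non-irradiated III), and was not tested. It reuses the Fgfr2 values, whose groups overlapped, and the share of gene pairs that separate was not computed.

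Fgfr3 (ENSMUSG00000054252, chromosome 5, 33721674 to 33737068), a receptor best known from cartilage and epithelia, was the scarcest axis gene per length. It had 3.54, 2.94, 3.44 and 3.43 CPM in irradiated I to IV and 3.38, 3.78, 4.14 and 3.53 CPM in non-irradiated I to IV. The groups overlapped, with irradiated II lowest. The fold was 0.897 (95% interval 0.766 to 1.05, adjusted p = 0.435). Fgfr3 shares 998 exonic bases with G630022F23Rik on the opposite strand, which had 4 counts over all libraries against 935 for Fgfr3. The effect of this overlap on its level was not tested.

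Libraries did not shift all axis genes alike. Irradiated II had the most Hgf and Fgf7 of the 8 libraries and the least Met, Fgfr3 and Fgf18. Non-irradiated II had the most Fgf2 and, among non-irradiated libraries, the most Hgf and Fgf7. Within groups the coefficient of variation of the 7 genes above 50 CPM ran from 1.74% (Fgfr1) to 8.97% (Met) in irradiated and from 4.77% (Met) to 9.89% (Fgf2) in non-irradiated libraries.

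The genes whose profiles over the 8 libraries were most like those of the called axis genes were found by the root mean square difference of log2 CPM, each gene centred on its own mean, among 10347 other genes with at least 5 CPM. For Hgf these were the zinc finger genes Zfp964 (0.0341) and Zfp933 (0.0464) and the long noncoding Gm20939 (0.0499), where Hgf itself varied by 0.138 about its mean. For Fgfr2 they were the sphingosine kinase gene Sphk1 (0.0356), Gclc (0.0358), which encodes the catalytic subunit of glutamate-cysteine ligase, and the acetyltransferase gene Nat9 (0.0360), where Fgfr2 varied by 0.115. Zinc finger genes of this kind have close copies, so their own counts are uncertain. Of the genes found by likeness, edgeR called Zfp933 (adjusted p = 0.0493), Gclc (0.0452) and Nat9 (0.0129) higher. Zfp964 (0.054), Gm20939 (0.159) and Sphk1 (0.0729) were not called. Over all tested genes 2.59% were called higher. The search matched profiles that include the difference between the groups. Higher values in irradiated libraries therefore follow from the choice of these genes and are no separate evidence.

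Around the axis, Fgfbp3 and Sulf2 were called higher and Gpc6, Itga6, Nras and Etv4 lower. Of 107 genes in 7 lists of other FGF ligands, receptors and co-receptors, heparan sulfate genes, adaptors and the ERK cascade, feedback genes, HGF activation and MET partners, 81 were tested. Of these, 2 were called higher (2.47%) and 4 lower (4.94%), shares near those of all tested genes (2.59% and 4.15%). Their median log2 fold change was -0.02, beside 0.0009 over all tested genes.

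**Figure D4:**
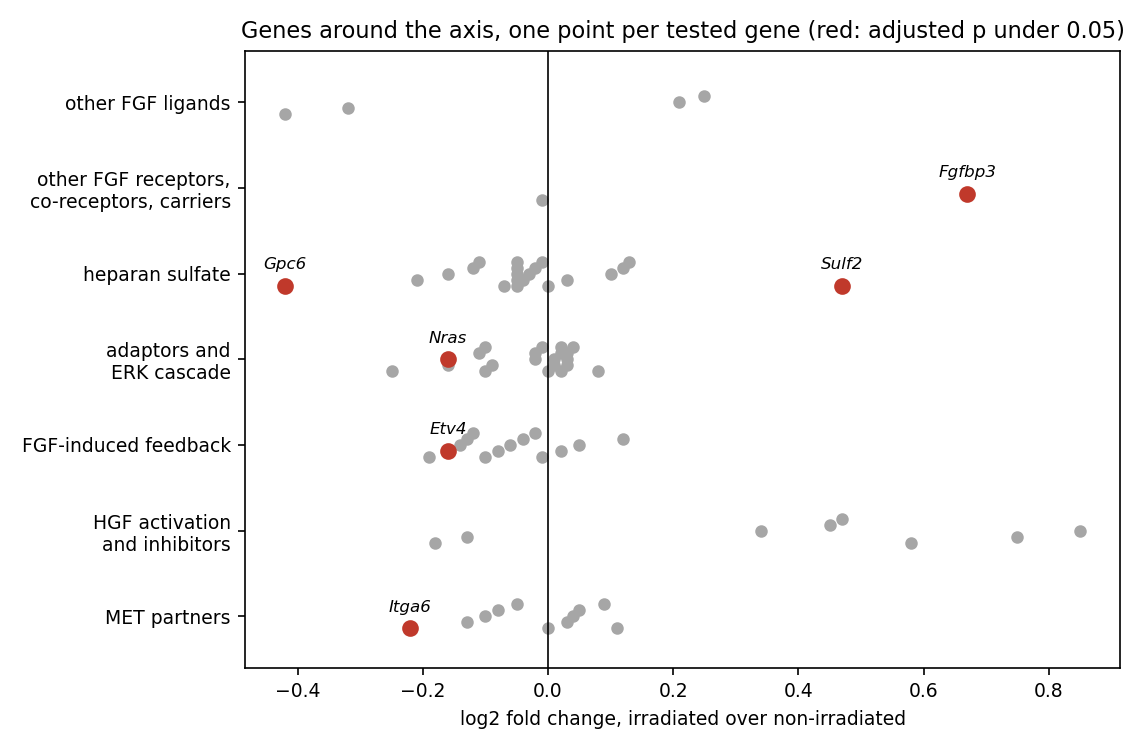
Log2 fold change of each tested gene in the 7 lists around the axis, irradiated over non-irradiated, with 1 point per gene and red for an adjusted p under 0.05. Fgfbp3 (0.67) and Sulf2 (0.47) were higher; Gpc6 (-0.42), Itga6 (-0.22), Nras (-0.16) and Etv4 (-0.16) were lower.

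Fgfbp3, which encodes a secreted carrier that binds FGFs (chromosome 19), had 8.41, 8.45, 10.4 and 9.75 CPM in irradiated I to IV, against 4.78, 6.17, 6.01 and 6.21 CPM in non-irradiated I to IV. The groups did not overlap, a separation upward that 6.13% of tested genes showed. Fgfbp3 rose 1.59-fold (log2 fold change 0.67, SE 0.10, adjusted p = 0.00113). This call was kept under all 20 alternatives. The remaining tested gene of that list was the decoy-like receptor gene Fgfrl1, at 45.8 ± 1.44 CPM in irradiated and 46.0 ± 3.29 CPM in non-irradiated libraries (SD, n = 4 each; adjusted p = 0.964). The FGF19-family co-receptor gene Kl had 3 counts over all libraries and Klb 55, and neither was tested.

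Sulf2, an extracellular sulfatase that removes sulfate groups from heparan sulfate (chromosome 2), had 43.6, 40.2, 44.3 and 43.4 CPM in irradiated I to IV, against 31.8, 32.0, 29.7 and 30.2 CPM in non-irradiated I to IV. Each group kept within a narrow band far from the other, where 6.13% of tested genes separated upward. Sulf2 rose 1.39-fold (log2 fold change 0.47, SE 0.05, adjusted p = 4.38e-05) and was called under all 20 alternatives. Its relative Sulf1 had 65.6 ± 2.08 CPM in irradiated and 67.9 ± 4.18 CPM in non-irradiated libraries (SD, n = 4 each; log2 fold change -0.05, adjusted p = 0.599).

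Of the 21 tested heparan sulfate genes, Sulf2 was the 1 called higher and Gpc6, a membrane-anchored glypican, the 1 called lower. Each is 4.76% of the tested list, against 2.59% higher and 4.15% lower over all tested genes. Gpc6 averaged 6.23 ± 0.369 CPM in irradiated and 8.34 ± 1.12 CPM in non-irradiated libraries (SD, n = 4 each; log2 fold change -0.42, adjusted p = 0.0193), with no overlap, as 8.07% of tested genes showed downward. Its call was lost without irradiated III (adjusted p = 0.0632), without irradiated I and II together (0.0849) and without non-irradiated I and III together (0.0584). Sdc4, a syndecan and the most abundant of the list per length, was at 235 ± 7.19 CPM in irradiated and 243 ± 9.57 CPM in non-irradiated libraries (adjusted p = 0.507). Hspg2, the gene of the basement membrane proteoglycan perlecan, named after its values were seen, just missed the threshold (488 ± 33.3 CPM in irradiated and 566 ± 48.4 CPM in non-irradiated libraries, log2 fold change -0.21, adjusted p = 0.0534). It passed without non-irradiated III (log2 fold change -0.26, adjusted p = 0.0205) and with DESeq2 (adjusted p = 0.0149). The number of heparan sulfate genes called lower ran from 0 without irradiated III to 5 with an offset for GC content and length. At an unadjusted p under 0.05 with edgeR, 2 of the list were higher and 5 lower.

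Of 21 adaptor and ERK cascade genes, 0 were called higher and 1 lower (4.76%, against 4.15% of all tested genes), Nras, a RAS GTPase (108 ± 3.30 CPM in irradiated and 121 ± 3.77 CPM in non-irradiated libraries, SD, n = 4 each; log2 fold change -0.16, adjusted p = 0.0252). At an unadjusted p under 0.05, 0 of the list were higher and 5 lower, and DESeq2 and limma-voom each called 0 higher and 1 lower. The call of Nras was lost without irradiated I (adjusted p = 0.0660), III (0.0821) or IV (0.0867), without non-irradiated I (0.0645), without irradiated I and II together (0.0545) and without non-irradiated I and III together (0.0683). Crk, an adaptor and the most abundant of the list per length, was at 372 ± 5.80 CPM in irradiated and 365 ± 5.53 CPM in non-irradiated libraries (adjusted p = 0.667).

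Of the 14 genes in the feedback list, 0 were called higher and 1 lower (7.14%, against 4.15% of all tested genes), Etv4, an ETS transcription factor. It averaged 79.8 ± 2.41 CPM in irradiated and 89.0 ± 3.91 CPM in non-irradiated libraries (SD, n = 4 each; log2 fold change -0.16, adjusted p = 0.0448). Among the 8 fits omitting 1 library, that call held in 1, the fit without non-irradiated IV (adjusted p = 0.0344). It was lost without irradiated I (0.127), II (0.114), III (0.0546) or IV (0.0962), without non-irradiated I (0.106), II (0.0711) or III (0.0684), without irradiated I and II together (0.308) and without non-irradiated I and III together (0.146). Spry2, a feedback inhibitor and the most abundant of the list per length, was at 152 ± 10.8 CPM in irradiated and 156 ± 6.53 CPM in non-irradiated libraries (adjusted p = 0.704). Dusp6, the ERK phosphatase, named after its values were seen, was at 150 ± 6.42 CPM in irradiated and 138 ± 2.77 CPM in non-irradiated libraries (log2 fold change 0.12, adjusted p = 0.0827), and DESeq2 called it (adjusted p = 0.0358). At an unadjusted p under 0.05, 1 gene of the list was higher and 2 were lower, and limma-voom called 0 higher and 1 lower.

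The 8 tested genes in the list of HGF activation and its inhibitors included Mst1 and Mst1r. These encode a different ligand and its receptor, not activators or inhibitors of HGF. With each of edgeR, DESeq2 and limma-voom, 4 of the 8 were higher and 2 lower at an unadjusted p under 0.05. The share of all tested genes at that threshold is not given, so these counts cannot be set against it. With edgeR the 4 were Hgfac, St14, Hpn and Mst1r (log2 fold change 0.47), and the 2 were Plau and Plat. None of the 8 was called by any of these tools. The most abundant, Plau, the urokinase gene, had 153 ± 13.5 CPM in irradiated and 173 ± 14.3 CPM in non-irradiated libraries (SD, n = 4 each; log2 fold change -0.18, adjusted p = 0.139). It passed without non-irradiated II (log2 fold change -0.23, adjusted p = 0.0402) and without the low-count filter (adjusted p = 0.00559). Hgfac, the gene of a protease that cuts pro-HGF, was scarce at 2.01 ± 0.135 CPM in irradiated and 1.48 ± 0.239 CPM in non-irradiated libraries (log2 fold change 0.45, adjusted p = 0.0900). St14, the matriptase gene, was scarcer still at 0.742 ± 0.145 CPM and 0.446 ± 0.115 CPM in the same groups (log2 fold change 0.75, adjusted p = 0.0900). Hpn was as scarce, at 0.706 ± 0.166 CPM in irradiated and 0.385 ± 0.201 CPM in non-irradiated libraries (log2 fold change 0.85, adjusted p = 0.139). Plat had 49.4 ± 0.89 CPM in irradiated and 54.0 ± 2.77 CPM in non-irradiated libraries (log2 fold change -0.13, adjusted p = 0.095). Hgfac, St14, Hpn and Plat were named after their values were seen. Without non-irradiated II, 1 gene of the list was called higher and 1 lower. The inhibitor genes Spint1 and Spint2 had at most 8 counts in any library and were not tested.

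Among 11 MET partners, 0 were called higher and 1 lower (9.09%, against 4.15% of all tested genes), Itga6, an integrin subunit that binds laminin. It had 94.4, 104, 105 and 100 CPM in irradiated I to IV, against 118, 113, 116 and 123 CPM in non-irradiated I to IV. There was no overlap, a separation downward that 8.07% of tested genes showed. The log2 fold change was -0.22 (SE 0.04, adjusted p = 0.00778), called whichever single library was left out and lost without irradiated I and II together (adjusted p = 0.0622). Plxnb2, a plexin and the most abundant of the list per length, was at 679 ± 12.7 CPM in irradiated and 654 ± 30.6 CPM in non-irradiated libraries (SD, n = 4 each; adjusted p = 0.466). At an unadjusted p under 0.05 with edgeR, 0 of the list were higher and 3 lower.

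Among the 4 tested FGF ligand genes outside the axis list, 0 were called by edgeR, DESeq2 or limma-voom, and 0 had an unadjusted p under 0.05. Fgf11, the highest of them, was at 2.06 ± 0.310 CPM in irradiated and 1.79 ± 0.325 CPM in non-irradiated libraries (SD, n = 4 each; adjusted p = 0.511).

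**Figure D5:**
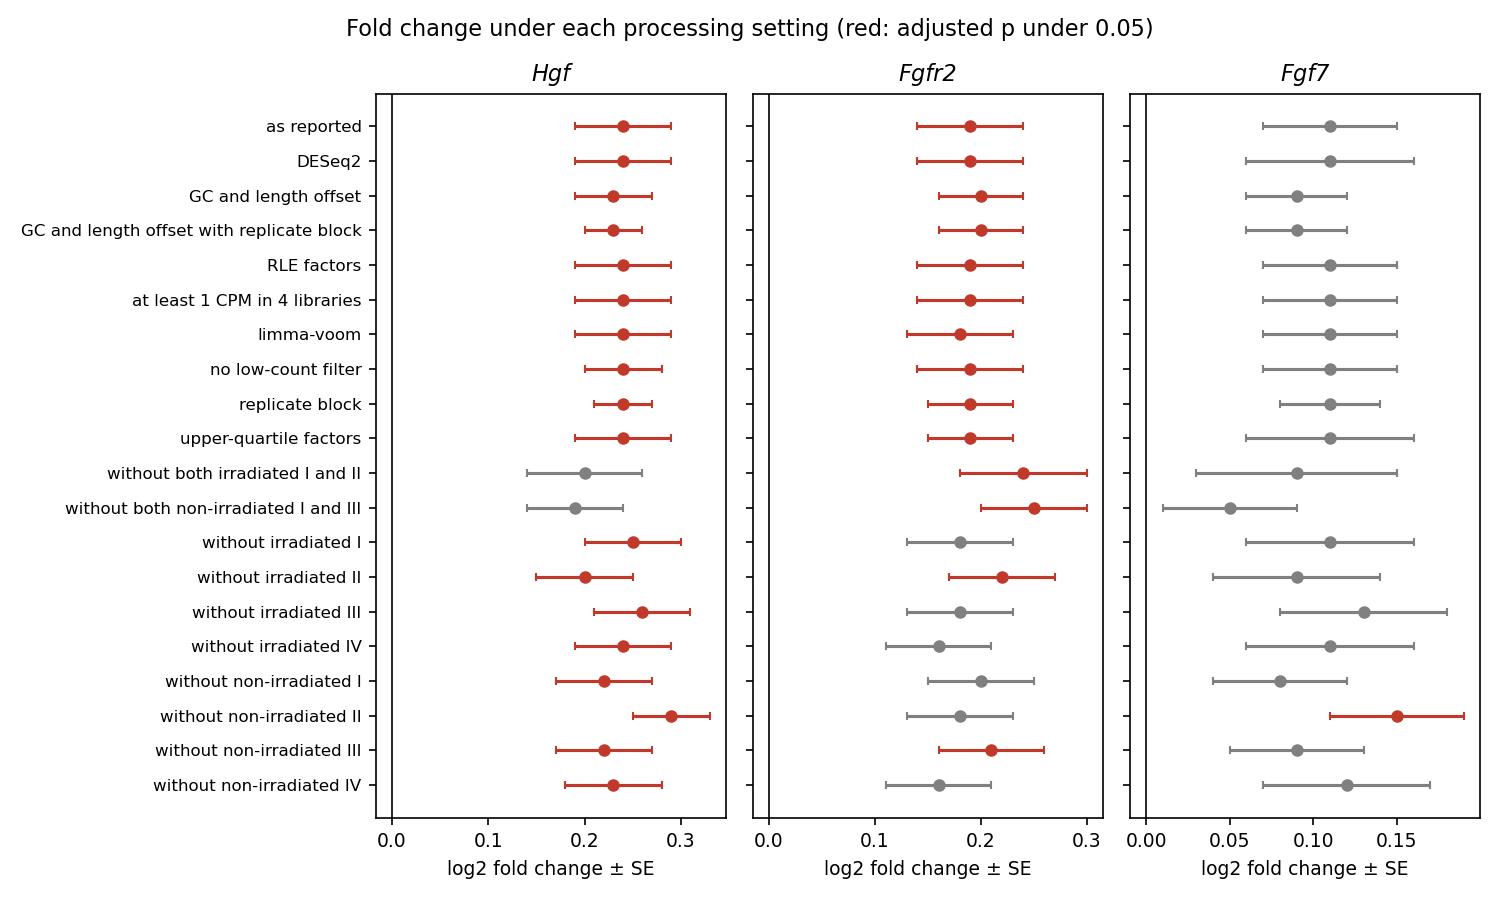
Log2 fold change ± SE of Hgf, Fgfr2 and Fgf7 as reported and in each refit, red where the adjusted p is under 0.05. Hgf keeps its call except in both fits that leave out a pair of libraries, Fgfr2 loses it in 6 of 8 fits that leave out a single library, and Fgf7 gains it in 1, with values from 0.05 to 0.15.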

How the data were processed

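RNA labelled polyA was sequenced in 8 libraries. The authors deposited raw read counts per Ensembl gene, 1 table per library. The submitters' processing notes name bcl2fastq 2.20.0.422, STAR 2.5.2a, featureCounts 1.5.0-p1 and mm10; the annotation release, strand setting and treatment of multi-mapping reads were not given in the sources used here. Symbols and exon lengths came from GENCODE M21 (GRCm38), which matched 55480 of 55573 identifiers.

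These gene counts went into edgeR 4.0.16 under R 4.3.3 (TMM factors; filterByExpr, minimum count 10 and total 15; quasi-likelihood test, group as the sole term, all 8 libraries), adjusted over all 15259 tested genes by Benjamini-Hochberg. SEs and 95% intervals came from the F statistic and its degrees of freedom. RPKM used union exon length. Scripts were tested on simulated counts. Alternatives included DESeq2 1.42.0 and limma-voom (limma 3.58.1). The axis genes and lists were chosen with earlier results of these data known. Named genes were all axis genes, every called list gene, each list's most abundant other gene per length and the 3 genes most like each called axis gene; further genes are said to be named after their values were seen.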

Additional observations from a re-analysis of the deposited data

Results flagged for a closer look

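In 52 groups of 4 libraries, covering the axis genes and the list genes checked, 6 held a library far from the other 3 by Dixon's criterion; chance flags about 5% of groups. Hgf reached 266 CPM in non-irradiated II, against 235 to 238 CPM in the other non-irradiated libraries. Gpc6 reached 10.0 CPM in non-irradiated I, against 7.75 to 7.82 CPM in the others. Nras reached 127 CPM in non-irradiated I, against 119 to 120 CPM. Fgfbp3 fell short of its group in non-irradiated I with 4.78 CPM, against 6.01 to 6.21 CPM. Fgf11 was low in non-irradiated III with 1.30 CPM, against 1.92 to 1.97 CPM. Hspg2 was low in irradiated III with 438 CPM, against 502 to 509 CPM in the other irradiated libraries.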

How the results depend on the processing

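In all, 20 alternatives were run. Hgf kept its call in 18 of 20, with log2 fold changes from 0.19 to 0.29; it missed the threshold without irradiated I and II together (0.20) and without non-irradiated I and III together (0.19). Fgfr2 kept its call in 13 of 20, with values from 0.16 to 0.25; it was lost at a threshold of 0.01 (0.19) and in 6 of 8 fits without 1 library, where values ran from 0.16 to 0.22. Fgf7 passed in 1 fit, without non-irradiated II (0.15; 0.08 to 0.15 over fits without 1 library). The other axis genes were called in none. Over all genes, higher calls numbered 395 and moved to 648 without the low-count filter, 604 with a GC and length offset, 643 with that offset and the replicate block, 140 at a threshold of 0.01, and 221 to 402 without 1 library (234 without irradiated III, 221 without irradiated IV, 257 without non-irradiated I). Lower calls numbered 634 and moved to 295 without irradiated I and II together, 296 at a threshold of 0.01 and 415 to 611 without 1 library (415 without irradiated IV). List genes called higher numbered 2, and 4 with DESeq2 and with the offset and block; without 1 library they ran from 2 to 3. List genes called lower numbered 4, and 7 with DESeq2, 8 without the low-count filter, 8 with the offset, 7 with the offset and replicate block, 0 without irradiated I and II together, 1 at a threshold of 0.01 and 1 to 5 without 1 library (1 without irradiated III, 2 without irradiated I, irradiated IV or non-irradiated I). The causes were not tested. Correlations between the deviations of same-numbered libraries from their group means were 0.0248, -0.0332, 0.275 and 0.147 for I to IV. Those of differently numbered libraries ran from -0.226 to 0.148. So few values cannot decide whether the numerals pair the libraries. With the replicate block Hgf (0.24) and Fgfr2 (0.19) kept their calls, and Hspg2 passed (adjusted p = 0.00544). The block gave 550 higher and 802 lower calls. Low counts limit Fgf18 and Fgfr3.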
